A study of Mus musculus with 6 samples.

Results

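Expression of 10 genes that the tumour suppressor p53 is known to switch on was followed by RNA-seq in mouse myeloid progenitors that had lost the histone chaperone CAF-1 or the activity of HOXA9. The 10 genes (Cdkn1a, Ccng1, Gadd45a, Bax, Bbc3, Trp53inp1, Phlda3, Mdm2, Sesn2 and Zmat3) were chosen by name as a readout of DNA lesions or replication stress. They were found by symbol among 34199 gene symbols, and all 10 were among the 12460 genes with enough reads to be tested. The cells were C57Bl/6 granulocyte-macrophage progenitors from Lys-GFP bone marrow, held in self-renewal by HOXA9 fused to an estrogen receptor domain. In the 2 CAF-1 OFF libraries, 500 µM IPTG had switched on a hairpin against Chaf1b, a subunit gene of CAF-1, for 24 h, with estradiol (150 ng/ml) still present. The 2 control libraries also came from cells kept in estradiol and given IPTG for 24 h. The 2 HOXA9 OFF libraries came from cells washed free of estradiol and grown without it for 24 h. Such cells are called iGMPs, and the lines of the study were clonal. The labels did not say which clones the libraries came from, whether HOXA9 OFF cells received IPTG, or whether replicates were separate cultures, so the p-values measure only the spread between these libraries. The paper also describes clones with a control vector in place of the hairpin. If the control libraries came from such clones, effects of clone and of CAF-1 loss cannot be told apart.

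p53 is a transcription factor kept at low protein levels by MDM2, a ubiquitin ligase whose gene is itself a p53 target. When kinases of the DNA damage and replication checkpoints act on p53 and MDM2, p53 accumulates, binds pairs of 10-base half-sites in DNA and raises genes that stop the cell cycle, promote cell death or limit metabolic stress. Because p53 is controlled mainly as a protein, its target transcripts are often used to read its activity, although several of them also answer to other regulators. The gene Cdkn2a, which encodes the MDM2 inhibitor ARF as well as p16, is a further well-known brake on immortalized cells.

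Since these genes are grouped by a shared DNA-binding factor, sequences resembling a p53 site were read from the mm9 assembly (NCBIM37) around each gene start. The search took 2500 bases on either side of the outermost annotated start of the gene. It asked for 2 adjoining p53 half-sites with the C and G of each 4-base core in place and at most 2 other mismatches. A p53 site reads the same on both strands, so 1 scan covered both. Such a sequence was found near 4 of the 10 genes, whereas 5.48% of 11524 tested protein-coding genes held one. The sequences below run 5′ to 3′ on the strand of the gene, with the core of each half-site in capitals, and are shown because p53 is known to act through sequences of this kind.
Cdkn1a, chr17:29227873-29227892, plus strand, centred 42 bases before the annotated start: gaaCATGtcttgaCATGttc
Ccng1, chr11:40568964-40568983, minus strand, centred 160 bases before the start: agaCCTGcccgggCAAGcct
Ccng1, chr11:40568438-40568457, minus strand, in an intron: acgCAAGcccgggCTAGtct
Zmat3, chr3:32263253-32263272, minus strand, in an intron: aaaCAAGcccaggCATGtct
Bax, chr7:52721944-52721963, minus strand, in an untranslated part of an exon: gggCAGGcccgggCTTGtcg

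The Zmat3 sequence had 0 mismatches, the Cdkn1a sequence and both Ccng1 sequences had 1, and the Bax sequence had 2. Sequences with at most 1 mismatch occurred near 3 of the 10 genes and near 0.885% of the tested genes. In the shorter RefSeq promoter windows (GRCm38.p6, 250 bases before to 50 after a start), which covered 8 of the 10 genes in 11 windows, 5 windows held at least 1 exact p53 half-site, against 8.36% of all 32851 windows. The letters CATG, which can form the core of a half-site and are the same on both strands, were in 5 of the 11 windows and in 61.1% of all. For Cdkn1a the window at the upstream start held 2 half-sites and the window at the downstream start held 0. All of these are matches of letters and show nothing of binding.

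The libraries held between 16773560 and 25170898 gene-assigned reads, at which 3 counts corresponded to 0.118 to 0.182 CPM (gene counts scaled to a common library size). The hairpin target Chaf1b stood at 17.8 and 12.1 CPM after its hairpin was induced, 90.0 and 105 CPM in the control libraries and 64.6 and 61.4 CPM with HOXA9 switched off. It was called lower than in control in both, with log2 fold changes of -2.71 ± 0.20 (SE, edgeR FDR 0.0198) and -0.63 ± 0.18 (edgeR FDR 0.0396). All 10 markers of granulocyte-macrophage progenitors (GMPs) were detected in every library, and their summed level was 11810 to 14830 CPM for control, 15660 to 17480 CPM for CAF-1 OFF and 12350 to 15450 CPM for HOXA9 OFF. Within that sum, 4 of the 10 in HOXA9 OFF were called lower and 2 higher, with Flt3 at 5.02 and 3.46 CPM against 237 and 329 CPM in control and Cd34 at 484 and 507 CPM against 1805 and 1797 CPM. Of these markers 0 were called after CAF-1 loss by edgeR or DESeq2, with 2 at an unadjusted p under 0.05 in each. The 10 granulocyte and monocyte markers summed to 71.8 to 111 CPM for control, 248 to 289 CPM for CAF-1 OFF and 1207 to 1659 CPM for HOXA9 OFF. In bulk libraries, fewer cells of a type and less RNA per cell cannot be told apart.

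The members covered a wide range of expression. Per kilobase of annotated exon, Bax led in control cells at 68.3 and 79.8 CPM per kb, followed by Gadd45a at 32.1 and 34.8. Ccng1 (15.8 and 19), Cdkn1a (11.6 and 18.1) and Sesn2 (9.42 and 16.1) came next with overlapping values, as did Sesn2 and Mdm2 (10.2 and 11.1). Bbc3 (5.85 and 8.44) and Phlda3 (4.54 and 7.0) also overlapped, and both stood above Trp53inp1 (0.946 and 2.59) and Zmat3 (0.223 and 0.646). The lengths came from the GENCODE annotation of NCBIM37, which need not be the one used for counting. All further levels are CPM of a gene compared with itself.

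**Figure D1:**
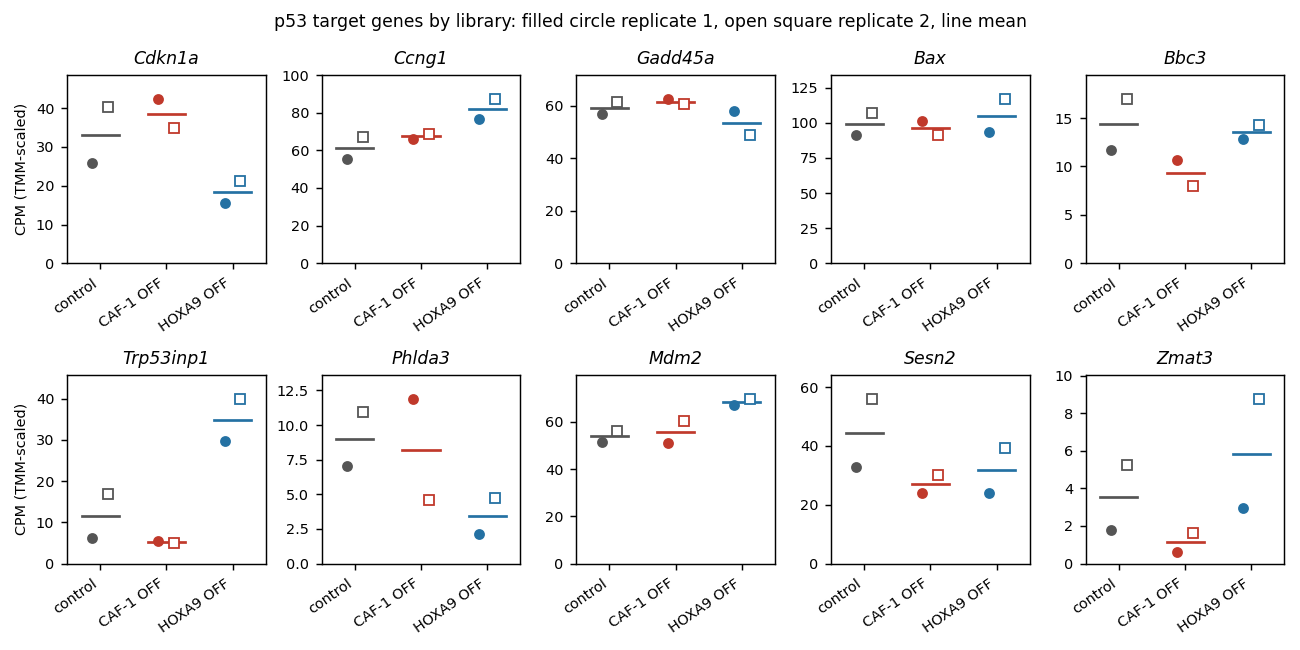
Level of each p53 target gene (CPM, linear axis from 0) in the 6 libraries, with filled circles for replicate 1, open squares for replicate 2 and lines for group means. Trp53inp1 is low in both CAF-1 OFF libraries (5.40 and 5.01 CPM) and high in both HOXA9 OFF libraries (29.8 and 39.8 CPM), Cdkn1a is lowest in HOXA9 OFF, and Bax and Gadd45a stay within narrow ranges.

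The first comparison asked whether the p53 targets responded within 24 h of CAF-1 loss. Against control, 0 of the 10 passed in CAF-1 OFF at a 1.5-fold change and an FDR under 0.05, where 0.0321% of all tested genes passed (4 of 12460, edgeR quasi-likelihood test, 0.0241% higher and 0.00803% lower). At an unadjusted p under 0.05 there were 2 members, Bbc3 and Trp53inp1, against 10.7% of all genes, and both were lower in CAF-1 OFF. DESeq2 also called 0 of the 10, where it called 1.54% of all genes. At an unadjusted p under 0.05 it had 4 members, against 9.93% of all genes, and all 4 (Bbc3, Trp53inp1, Sesn2 and Zmat3) were lower in CAF-1 OFF. The median log2 fold change of the 10 was -0.09, beside -0.004 for all genes, with 4 members positive and 6 negative. In fits without a library this median ranged from -0.344 (without CAF-1 OFF replicate 1) to 0.097 (without control replicate 2). Of the 10 granulocyte and monocyte markers 0 were called in these libraries by edgeR (5 at an unadjusted p under 0.05, and 4 called by DESeq2), all 10 had a positive fold change, and their part in the values of the members was not tested.

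Cdkn1a (chr17:29227924-29237667, plus strand, mm9), which encodes the cyclin-dependent kinase inhibitor p21 and is among the best known p53 targets, stood at 42.3 and 34.9 CPM after CAF-1 loss and at 25.9 and 40.2 CPM in control. The groups overlapped, because control replicate 2 lay between the CAF-1 OFF libraries. The log2 fold change was 0.23 ± 0.25 (95% interval -0.36 to 0.82, edgeR FDR 0.789), and it was -0.06 without control replicate 1 and 0.59 without control replicate 2 (edgeR FDR 0.978 and 0.855). Ccng1, the cyclin G1 gene, had 66.2 and 68.7 CPM in CAF-1 OFF against 55.5 and 66.8 CPM in control (log2 fold change 0.14 ± 0.13, 95% interval -0.17 to 0.45, edgeR FDR 0.748). Gadd45a, whose product responds to DNA damage and growth arrest, had 62.5 and 60.5 CPM against 56.7 and 61.4 CPM (0.06 ± 0.12, 95% interval -0.23 to 0.35, edgeR FDR 0.904). For Ccng1 and Gadd45a the upper bounds lay below a 1.5-fold rise, which is 0.58 on the log2 scale, and the groups overlapped in both genes. Of the exon bases of Gadd45a, 19.1% lie within a noncoding gene on the opposite strand, E230016M11Rik, which had 19 to 32 counts per library.

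Among genes that promote cell death, Bax encodes a pore-forming BCL2 family protein and Bbc3 encodes PUMA, which frees it to act. Bax stood at 101 and 91.0 CPM after CAF-1 loss, beside 91.5 and 107 CPM in control, so that each group spanned about the same range (log2 fold change -0.05 ± 0.15, 95% interval -0.40 to 0.30, edgeR FDR 0.94). Bbc3 was lower in both CAF-1 OFF libraries (10.7 and 8.0 CPM) than in both controls (11.8 and 17.0 CPM). Its log2 fold change of -0.62 ± 0.24 was not called (95% interval -1.20 to -0.04, edgeR FDR 0.441). Phlda3, whose product restrains AKT signalling, had 11.9 and 4.56 CPM in CAF-1 OFF against 7.07 and 10.9 CPM in control, and the CAF-1 OFF libraries lay on either side of both controls (log2 fold change -0.13 ± 0.53, 95% interval -1.39 to 1.13, edgeR FDR 0.957).

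Trp53inp1 (chr4:11083578-11101526, plus strand, mm9) encodes a stress protein with known roles in p53 phosphorylation and autophagy. Its 2 CAF-1 OFF libraries were close together at 5.40 and 5.01 CPM, whereas the controls differed 2.74-fold between themselves at 6.13 and 16.8 CPM. Both CAF-1 OFF values lay below both controls, with a log2 fold change of -1.12 ± 0.45 (95% interval -2.18 to -0.06, edgeR FDR 0.446). The size of this difference rested on control replicate 2, as it was -0.23 without it and -1.68 without control replicate 1.

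Of the remaining members, Mdm2, the feedback gene of the pathway, had 51.1 and 60.2 CPM after CAF-1 loss, beside 51.7 and 56.1 CPM in control (log2 fold change 0.05 ± 0.12, 95% interval -0.24 to 0.34, edgeR FDR 0.925). The controls lay inside the CAF-1 OFF range. Sesn2, which encodes a leucine-sensing inhibitor of mTORC1 signalling and is also raised by ATF4, had 24.1 and 30.0 CPM in CAF-1 OFF against 32.7 and 55.8 CPM in control (log2 fold change -0.71 ± 0.31, edgeR FDR 0.489). Zmat3 (chr3:32233718-32264600, minus strand, mm9), the gene of an RNA-binding splicing regulator, was the member at the lowest level, with counts of 12 and 32 after CAF-1 loss and 46 and 90 for the controls (0.624 and 1.62 against 1.81 and 5.23 CPM). Its log2 fold change of -1.62 ± 0.77 spanned 0 in its interval (-3.45 to 0.20, edgeR FDR 0.516). In Sesn2 and Zmat3 both CAF-1 OFF libraries lay below both controls, though the highest CAF-1 OFF value came close to the lowest control.

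In all, 4 of the 10 members (Bbc3, Trp53inp1, Sesn2 and Zmat3) had both CAF-1 OFF libraries below both controls, where 20% of all genes did, and 0 had both above, where 20.1% of all genes did. Each of these 4 differences was smaller without control replicate 2 and larger without control replicate 1. Without control replicate 2 the log2 fold change was -0.32 for Bbc3, -0.27 for Sesn2 and -0.68 for Zmat3, and without control replicate 1 it was -0.86, -1.04 and -2.21. Without a filter on low counts, 3 of these 4 passed the cutoffs as lower in CAF-1 OFF (Trp53inp1, edgeR FDR 0.00894; Sesn2, 0.035; Zmat3, 0.0459), while the calls over all genes went from 4 to 378 (1.90% of those tested). Over all settings run, 0 members were called higher after CAF-1 loss.

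**Figure D2:**
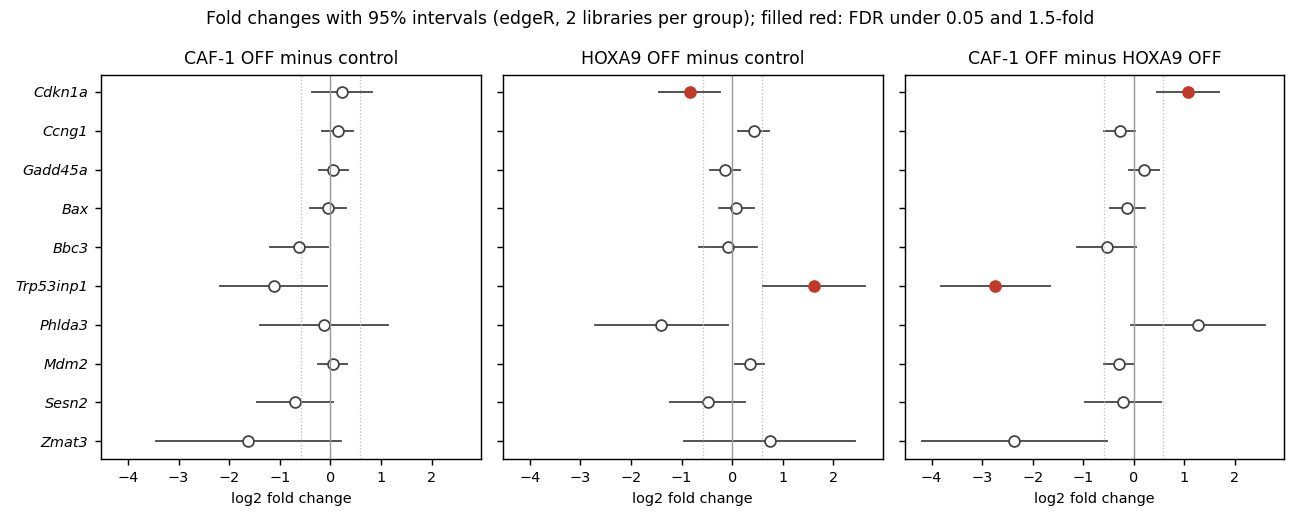
Log2 fold change of each member (points) with its 95% interval (lines) in the 3 comparisons, 2 libraries per group. Filled red points passed a 1.5-fold change (dotted lines) and an FDR under 0.05, which holds for 0 members in CAF-1 OFF against control and for Cdkn1a and Trp53inp1 in the other panels, with opposite signs.

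The second comparison took the same genes through HOXA9 inactivation, after which iGMPs enter normal myeloid differentiation. Here 2 of the 10 members were called, Trp53inp1 higher and Cdkn1a lower, where 22.0% of all genes were called (13.0% higher and 8.97% lower). At an unadjusted p under 0.05 there were 5, against 41.9% of all genes. DESeq2 called 3 members, Phlda3 (lower) being the third, and 22.7% of all genes. The median log2 fold change of the members was 0.002, beside -0.003 for all genes. It ranged from -0.12 without control replicate 1 to 0.202 without control replicate 2 in fits without a library. In the same libraries all 10 granulocyte and monocyte markers were called higher, with a median log2 fold change of 5.47, and the part of that shift in the values of the members was not tested.

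Trp53inp1 rose from 6.13 and 16.8 CPM in control to 29.8 and 39.8 CPM in HOXA9 OFF, so that both libraries were above both controls. The log2 fold change was 1.62 ± 0.43 (95% interval 0.60 to 2.63, edgeR FDR 0.03), a 3.07-fold higher level. The size again rested on control replicate 2, as it was 2.5 without it and 1.04 without control replicate 1, with the call kept in both cases. The call was lost without either HOXA9 OFF library, at edgeR FDR values of 0.0627 and 0.111. Its relative Trp53inp2, which is not a standard p53 target, was also called higher (log2 fold change 1.23, edgeR FDR 0.0117).

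Cdkn1a fell from 25.9 and 40.2 CPM in control to 15.6 and 21.3 CPM in HOXA9 OFF, again without overlap. The log2 fold change was -0.84 ± 0.26 (95% interval -1.44 to -0.23, edgeR FDR 0.0472). This call stood close to the threshold, and it was lost in the fit to the 4 libraries compared (edgeR FDR 0.0529) and in 5 of the 6 fits without a library. Those 5 ranged from a log2 fold change of -1.08 (edgeR FDR 0.059) without HOXA9 OFF replicate 2 to -0.49 (0.248) without control replicate 2. Without control replicate 1 the call was kept, at -1.13. The direction was the same in each of these fits.

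The arrest gene Ccng1 and the feedback gene Mdm2 differed from control by less than the 1.5-fold cutoff. Ccng1 had 76.7 and 87.2 CPM against 55.5 and 66.8 CPM in control (log2 fold change 0.42 ± 0.13, 95% interval 0.11 to 0.73, edgeR FDR 0.05). Mdm2 had 67.3 and 69.5 CPM against 51.7 and 56.1 CPM (0.35 ± 0.12, 95% interval 0.06 to 0.63, edgeR FDR 0.0737). In both genes the HOXA9 OFF libraries lay above both controls, and neither gene passed the call rule. For Phlda3, which DESeq2 (FDR 0.0446) and edgeR without a filter on low counts (FDR 0.00157) called lower and the edgeR fit reported here did not, both HOXA9 OFF libraries (2.12 and 4.73 CPM) lay below both controls at 7.07 and 10.9 CPM (log2 fold change -1.40 ± 0.56, 95% interval -2.72 to -0.08, edgeR FDR 0.103).

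The cell death genes Bax and Bbc3 overlapped with control in HOXA9 OFF. Bax had 93.2 and 117 CPM there (log2 fold change 0.08 ± 0.15, 95% interval -0.27 to 0.43, edgeR FDR 0.709) and Bbc3 had 12.9 and 14.3 CPM (-0.08 ± 0.24, 95% interval -0.65 to 0.49, edgeR FDR 0.841). Gadd45a (58.0 and 49.0 CPM), Sesn2 (24.1 and 39.2 CPM) and Zmat3 (2.94 and 8.73 CPM) likewise overlapped with control, with edgeR FDR values of 0.424, 0.287 and 0.472. In total 3 members had both HOXA9 OFF libraries above both controls and 2 had both below, beside 35.1% and 35.9% of all genes.

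The third comparison set CAF-1 OFF directly against HOXA9 OFF. No control level enters its contrast, but the control libraries shared in the filter, scaling and spread of the fit. Of the 10 members 2 were called, Cdkn1a higher and Trp53inp1 lower in CAF-1 OFF, where 22.1% of all genes were called (9.56% higher and 12.6% lower). At an unadjusted p under 0.05 there were 4, against 42.3% of all genes. The members had a median log2 fold change of -0.251, beside 0.001 for all genes, with 3 positive and 7 negative. In fits without a library that median ranged from -0.334 to -0.073. Trp53inp1 was 5.40 and 5.01 CPM in CAF-1 OFF against 29.8 and 39.8 CPM in HOXA9 OFF, a log2 fold change of -2.74 ± 0.45 (95% interval -3.82 to -1.66, edgeR FDR 0.00627). It was called in each of the 13 other fits of this comparison, with values from -2.92 to -2.52. In the edgeR fit reported here it was the one member that also passed a 2-fold change with an FDR under 0.01, and with DESeq2 Cdkn1a (FDR 0.000912) and Zmat3 (FDR 0.009) passed those cutoffs too, as did Cdkn1a, Zmat3 and Phlda3 with edgeR and no filter on low counts. Cdkn1a was 42.3 and 34.9 CPM against 15.6 and 21.3 CPM, a log2 fold change of 1.07 ± 0.26 (95% interval 0.46 to 1.67, edgeR FDR 0.0217). Its call was lost without CAF-1 OFF replicate 1 (0.92, edgeR FDR 0.083) and without HOXA9 OFF replicate 1 (0.87, edgeR FDR 0.112).

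For Zmat3 the counts were 12 and 32 after CAF-1 loss and 61 and 144 after HOXA9 loss, and its log2 fold change of -2.36 ± 0.77 missed the cutoff (95% interval -4.19 to -0.53, edgeR FDR 0.0579). Other settings moved it across the threshold, among them DESeq2 (FDR 0.009) and the fit to the 4 libraries compared (edgeR FDR 0.0495). Within each group replicate 2 of Zmat3 was 2.6 to 2.97 times replicate 1, the widest replicate ratio among the members in control and in HOXA9 OFF. Ccng1, Bbc3 and Mdm2 were lower in both CAF-1 OFF libraries than in both HOXA9 OFF libraries and Gadd45a was higher, by -0.28, -0.54, -0.30 and 0.20 on the log2 scale, with no call. Counting these, 5 members had both CAF-1 OFF libraries below both HOXA9 OFF libraries and 2 had both above, beside 33.7% and 33.0% of all genes.

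**Figure D3:**
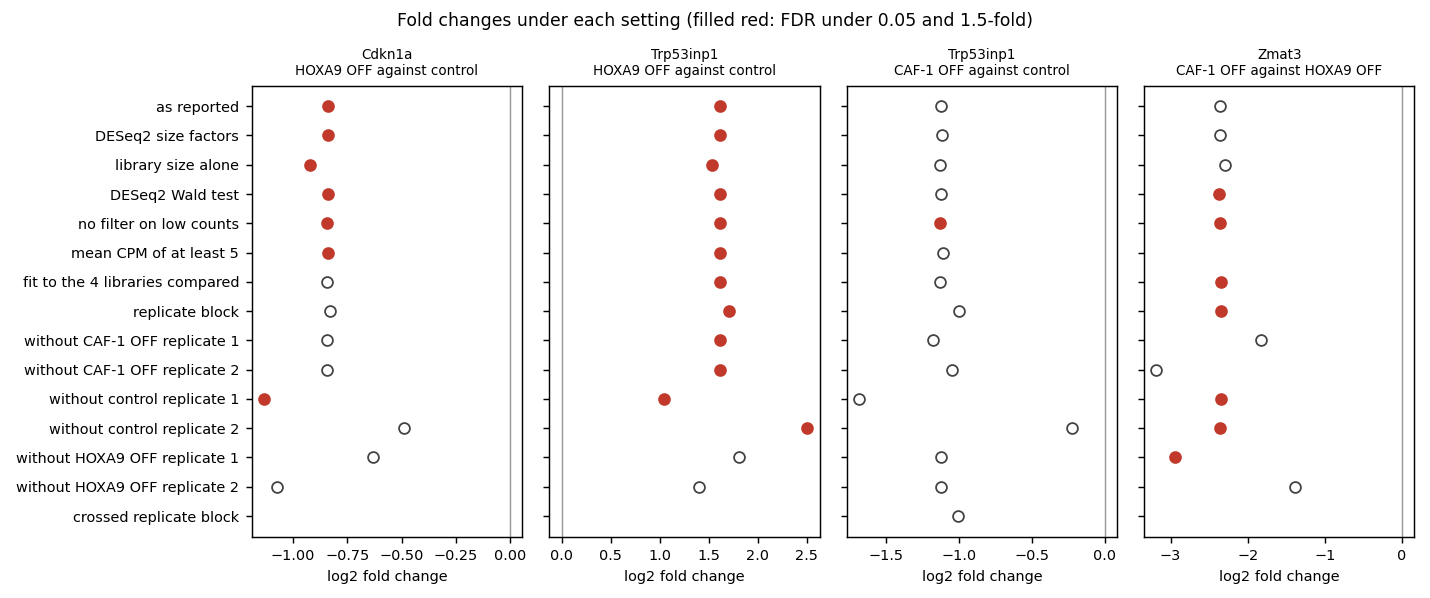
Log2 fold change of Cdkn1a, Trp53inp1 and Zmat3 under each setting, with filled red points past a 1.5-fold change and an FDR under 0.05. Trp53inp1 in CAF-1 OFF against control moves from -1.68 to -0.23 depending on which control library is left out, while Cdkn1a in HOXA9 OFF against control stays negative and crosses the threshold in several settings.

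The genes that control p53 were then examined. Of 12 such genes, 0 were called after CAF-1 loss, by edgeR or by DESeq2, with 0 at an unadjusted p under 0.05 in each. Trp53 itself stood at 17.6 and 20.9 CPM after CAF-1 loss, 21.7 and 21 CPM in control and 18 and 20.8 CPM in HOXA9 OFF (log2 fold changes against control -0.15 and -0.14, edgeR FDR 0.78 and 0.539). Both induced states lay below both controls. Cdkn2a was well expressed, at 249 and 263 CPM for control, 282 and 215 CPM for CAF-1 OFF and 238 and 235 CPM for HOXA9 OFF, and counts per gene do not separate its ARF and p16 transcripts. Mdm4, the partner of MDM2, varied widely between replicates, with 19.7 and 48.6 CPM in CAF-1 OFF against 72.4 and 32.4 CPM in control (edgeR FDR 0.72). Ppm1d, a phosphatase gene that is also a p53 target, had 40.0 and 37.5 CPM against 34.8 and 35.6 CPM (edgeR FDR 0.748). In HOXA9 OFF 1 of the 12 was called, where 22.0% of all genes were. This was the checkpoint kinase gene Chek1, which fell from 66.2 and 62.7 CPM to 40.9 and 39.2 CPM (log2 fold change -0.69, edgeR FDR 0.00452). In CAF-1 OFF Chek1 was 58.2 and 61.0 CPM (log2 fold change against control -0.11, edgeR FDR 0.748).

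A further 24 known p53 targets outside the 10 were counted, of which 21 could be tested. In CAF-1 OFF against control 0 were called by edgeR, with 5 at an unadjusted p under 0.05, beside 10.7% of all genes. DESeq2 called 1 (Pmaip1, higher), and edgeR without a filter on low counts also called only Pmaip1, higher. The median log2 fold change of the 21 was 0.006, with 11 positive and 10 negative. Pmaip1, which encodes the BH3-only death protein NOXA, was 65.2 and 66.1 CPM in CAF-1 OFF against 48.6 and 35.3 CPM in control (log2 fold change 0.64, edgeR FDR 0.273) and rose to 68.6 and 60.9 CPM in HOXA9 OFF (0.63, edgeR FDR 0.0299). In HOXA9 OFF 4 were called higher and 1 lower, beside 13.0% and 8.97% of all genes. The death receptor gene Fas was 6.80 and 7.88 CPM in HOXA9 OFF against 1.10 and 0.929 CPM in control (log2 fold change 2.84, edgeR FDR 0.0163). Apaf1, the apoptosome scaffold gene, was 194 and 152 CPM against 95.1 and 67.5 CPM (1.09, edgeR FDR 0.00972). In the direct comparison 11 of the 21 were positive and 10 negative. After CAF-1 loss 1 was called higher and 3 lower, beside 9.56% and 12.6% of all genes. Those lower were Fas (log2 fold change -2.58, edgeR FDR 0.0219), Apaf1 (-0.92, 0.0173) and Sesn1 (-1.11, 0.00642), and the one higher was Ak1 (2.56, 0.0111), Sesn1 and Ak1 being named after their values were seen.

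Genes of the replication checkpoint and of repair at stalled forks were listed next, because the members were chosen as a readout of such stress. Of 15, 0 were called after CAF-1 loss by edgeR or DESeq2, with 0 at an unadjusted p under 0.05 in each and a median log2 fold change of 0.03. In HOXA9 OFF 0 were called by either tool, with 4 at an unadjusted p under 0.05 in each and a median of -0.15. The 10 cell cycle genes that p21 is known to lower had 0 calls in all 3 comparisons by edgeR and DESeq2. Of these, 0 were at an unadjusted p under 0.05 against control in either state and 2 in the direct comparison, and the medians against control were 0.09 after CAF-1 loss and -0.10 after HOXA9 loss.

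Several members also respond to ATF4, the transcription factor of amino acid and unfolded protein stress, so 10 ATF4 targets were listed as well. Of the 9 tested, 8 were negative against control after CAF-1 loss, at a median log2 fold change of -0.71, with 0 calls by edgeR (3 at an unadjusted p under 0.05, and 2 called by DESeq2, Asns and Chac1). In HOXA9 OFF 8 were negative too, with a median of -0.79 and 5 called lower, where 8.97% of all genes were called lower. Both comparisons share the control libraries, and 8 of the 9 were higher in control replicate 2 than in control replicate 1, with a median log2 ratio of 0.53. The part of that library in either median was not tested. Slc7a11, the cystine transporter gene, was 40.7 and 39.1 CPM in HOXA9 OFF against 196 and 123 CPM in control (log2 fold change -2.00, edgeR FDR 0.00294), while in CAF-1 OFF it was 195 and 286 CPM. Psat1, of serine synthesis, was 606 and 681 CPM in HOXA9 OFF against 1511 and 1595 CPM in control (-1.27, edgeR FDR 0.00059) and 1405 and 1349 CPM in CAF-1 OFF. In the direct comparison both were called higher after CAF-1 loss, with log2 fold changes of 2.59 and 1.10, and 1 of the 9 was called lower, the stress factor gene Atf3 (-2.16, edgeR FDR 0.0478), named after its values were seen.

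Relatives of the members that are not standard p53 targets formed the last list, with 9 of 10 tested. In CAF-1 OFF 0 were called by edgeR or DESeq2, with 1 and 0 at an unadjusted p under 0.05. In HOXA9 OFF 2 were called higher, Trp53inp2 and Ccng2, where 13.0% of all genes were called higher. Ccng2, the cyclin G2 gene, was 74.2 and 54.8 CPM in HOXA9 OFF against 38 and 33.8 CPM in control (log2 fold change 0.84, edgeR FDR 0.0182) and 37.5 and 28.9 CPM in CAF-1 OFF. In the direct comparison both relatives were called lower after CAF-1 loss.

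**Figure D4:**
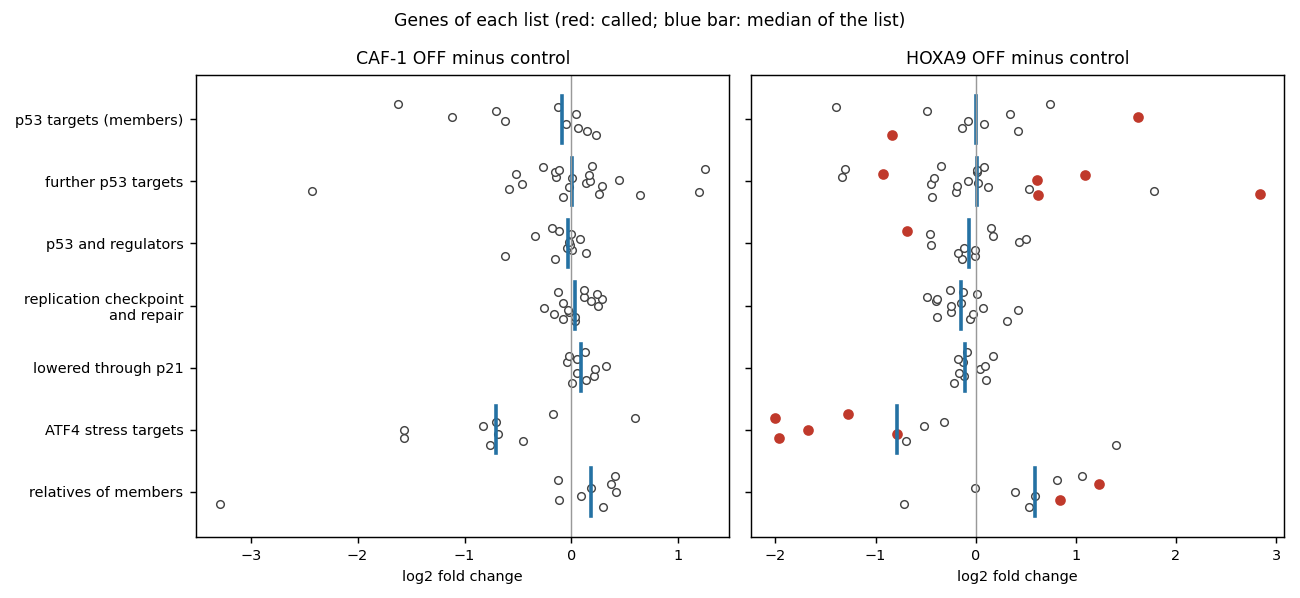
Log2 fold changes of the tested genes of each list against control, one point per gene, red where called and with a blue bar at the median of the list. By the edgeR test drawn here, 0 genes of these lists were called in CAF-1 OFF, with p53 list medians of -0.09 and 0.006, and in HOXA9 OFF the called members are Trp53inp1 (1.62) and Cdkn1a (-0.84).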

How the data were processed

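The libraries were made with a directional kit, and the authors aligned reads to mouse mm9 with STAR and counted them with HTSeq-count. The deposited values are raw read counts per gene symbol. Gene annotation, strand setting and overlap mode were not given in the sources used here, so overlapping genes are uncertain. The 5 tally lines were left out, among which reads in no gene amounted to 5.95% to 8.26% of the gene-assigned reads.

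Differential expression used edgeR 4.0.16 under R 4.3.3. Genes were kept by filterByExpr, scaled by TMM and fitted with a quasi-likelihood model with 1 mean per group over all 6 libraries. Calls needed a 1.5-fold change or more and, over all 12460 genes, a Benjamini-Hochberg FDR under 0.05, as the study set it. Standard errors and 95% intervals came from the quasi-likelihood F statistic. CPM used TMM-scaled library sizes. Alternatives were DESeq2 1.42.0 and its size factors, library size alone, no filter, a mean CPM of at least 5, the 4 libraries compared, a replicate block, other cutoffs, and fits without each library. The last assume that a lone library varies like the other groups. A crossed block was a later addition, chosen after seeing the data. The fit was also run on counts simulated from its own dispersion, as a check of the code alone.

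The members, the lists and the tests were chosen with earlier results of these data known. Of 130 list entries 119 were tested, and 6 were found under older symbols. Named were all members, Chaf1b, the 3 genes most like Cdkn1a, the genes of the 6 lists other than markers that edgeR called after CAF-1 loss (0, where DESeq2 called Pmaip1, Asns and Chac1) or both in HOXA9 OFF against control and between the induced states, and Trp53, Mdm4, Ppm1d, Cdkn2a, Chek1 and Pmaip1. Other genes, markers included, were named after their values were seen. The direct comparison of the replication checkpoint and repair list is not reported here. Replicates of every group differed by more than sampling noise (chi-square over its degrees of freedom 20.5 or more).

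The lymphoid markers summed to 98.3 to 109 CPM for control, 123 to 132 CPM for CAF-1 OFF and 5.83 to 7.39 CPM for HOXA9 OFF. In control the sum was nearly all Ebf1 (94.0 and 98.5 CPM), and Cd79a had 3.28 and 4.37 CPM in HOXA9 OFF against 1.45 and 4.70 CPM, with Cd3e and Cd3g at 0 throughout. The megakaryocyte and erythroid markers summed to 87.8 to 101, 109 to 171 and 86.2 to 89.4 CPM. These sums hide called differences in HOXA9 OFF against control, where Car2 was lower (log2 fold change -3.61) and Itga2b (1.80), Gata1 (1.81) and Gfi1b (3.43) were higher. In CAF-1 OFF 0 of the 7 tested were called by edgeR (3 at an unadjusted p under 0.05) and 2 by DESeq2, Pf4 and Gfi1b, both higher. The stromal and endothelial markers summed to 236 to 242, 286 to 309 and 420 to 444 CPM, nearly all of it Pecam1 (235.5 to 241 CPM in control and 419.5 to 443 CPM in HOXA9 OFF), with Kdr at 0 throughout.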

Additional observations from a re-analysis of the deposited data

How the results depend on the processing

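With 2 libraries per group and a dispersed gene such as Zmat3, only large differences could be resolved, and the cause of the changes below was not tested. After CAF-1 loss 4 genes were called against control. The count went to 192 with DESeq2, 378 unfiltered, 9 when only the 4 libraries compared were fitted, 2 with the replicate block and 0 at the strict cutoffs of 2-fold and an FDR under 0.01 (1330 genes at an unadjusted p under 0.05), and ranged from 0 to 10 in fits without a library. The count was 0 without CAF-1 OFF replicate 2 or control replicate 1. At the strict cutoffs 987 genes were called in HOXA9 OFF against control (2740 as reported) and 948 between the induced states (2755 as reported). In fits without a library these counts ranged from 1602 to 2840 and from 1711 to 2718, the lowest being without control replicate 2 and without HOXA9 OFF replicate 1. Scaling by library size alone moved the share of higher calls in HOXA9 OFF from 59.2% to 50.4%, and in CAF-1 OFF against HOXA9 OFF it was 52.5%. Members called in CAF-1 OFF against control went from 0 to 3 with no filter and stayed at 0 in each fit without a library. In HOXA9 OFF against control they went from 2 to 1 in the fit to the 4 libraries and with the replicate block, to 0 at the strict cutoffs, and from 0 to 2 without a library. Between the induced states they went from 2 to 4 with no filter, to 1 at the strict cutoffs, and from 1 to 3 without a library. With the replicate block Cdkn1a lost its call in HOXA9 OFF against control (edgeR FDR 0.0519) and in the direct comparison Zmat3 was called lower after CAF-1 loss (edgeR FDR 0.00508). The deviations of same-numbered libraries correlated at -0.178 in CAF-1 OFF against control, 0.456 in HOXA9 OFF against control and 0.0329 in the direct comparison. The numbers were not taken as pairs because the labels do not say what a replicate number shares. An effect shared by same-numbered libraries of HOXA9 OFF and control was not tested. With crossed numbers in CAF-1 OFF and control, 71 genes and 0 members were called. Signs turned only in fits without a library. In CAF-1 OFF against control the ranges were -0.152 to 0.079 for Bax, -0.059 to 0.158 for Mdm2, -0.98 to 0.42 for Phlda3 and -0.055 to 0.589 for Cdkn1a. In HOXA9 OFF against control they were -0.085 to 0.232 for Bax, -0.33 to 0.21 for Bbc3 and -0.24 to 1.68 for Zmat3, and between the induced states -0.272 to 0.041 for Bax and -0.52 to 0.16 for Sesn2. Of these results, 0 were called.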

Other observations

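All 10 members had a higher CPM in control replicate 2 than in control replicate 1, where 49.9% of the 12460 genes did, and the median of their log2 ratios (0.5 CPM added) was 0.55. The ratio was 2.89-fold for Zmat3, 2.74-fold for Trp53inp1, 1.71-fold for Sesn2 and 1.56-fold for Cdkn1a, and it was 1.08-fold for Gadd45a. In HOXA9 OFF 9 of the 10 were higher in replicate 2 (50.6% of all genes), Gadd45a being the exception. In CAF-1 OFF 4 of the 10 were higher in replicate 2 (50% of all genes), with Phlda3 at 0.385-fold. Of the further p53 targets 11 of 21 were higher in control replicate 2 and 12 of 21 in HOXA9 OFF replicate 2, and of the ATF4 targets 8 of 9 were higher in each. The pattern was noticed after the values were seen and was not tested.

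The genes whose pattern over the 6 libraries was most like that of Cdkn1a were Rbpms2, Gsta4 and Galnt6, with Euclidean distances of 0.233, 0.285 and 0.291 between centred log2 CPM, among 9615 genes whose mean CPM was 5 or more. Rbpms2, the closest, had 40.4 and 27.7 CPM after CAF-1 loss, 24.1 and 35.8 CPM in control and 13.9 and 20.7 CPM in HOXA9 OFF.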
